A study of Mus musculus with 20 samples.

Results

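Nicotinamide nucleotide transhydrogenase (Nnt) and 9 genes of the antioxidant response, Hmox1, Nqo1, Gclm, Gclc, Sod1, Sod2, Gpx1, Prdx1 and Txnrd1, were followed in microglial RNA of mThy1-α-synuclein (transgenic) and wild-type mice. They are 10 of the 24062 genes in the table of normalized counts, found there by symbol. Nnt was chosen by its normalized counts, whose difference between the genotypes of these mice was already known, so its values are given as a description without a test. The other 9 were named for their function, with earlier results of these data known.

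RNA was sequenced from 20 male mice of the B6D2F1/J strain. There were 6 transgenic and 4 wild-type mice at 7 months of age, and 5 transgenic and 5 wild-type mice at 10 months. The transgenic mice are hemizygous for human α-synuclein under the mouse Thy-1 promoter, which drives it in neurons, with the transgene on the X chromosome. Each library was made from 1 brain, without pooling, and the microglia were taken with CD11b beads according to the methods and with IBA1 selection according to the labels. Mice of each age were processed together and normalized together, so age cannot be told apart from processing, and genotypes were compared within an age.

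Nnt sits in the inner mitochondrial membrane and uses the proton gradient to pass hydride from NADH to NADP+, which supplies NADPH inside mitochondria. NADPH keeps glutathione and thioredoxin reduced, and these in turn serve the enzymes that remove peroxides. Superoxide dismutases turn superoxide into hydrogen peroxide ahead of that step. Many of the genes are driven by the transcription factor NRF2, which binds antioxidant response elements in promoters and competes there with BACH1. Microglia, the resident macrophages of the brain, also make superoxide on purpose with the NADPH oxidase. Nnt is also known as a strain-dependent gene, because C57BL/6J mice carry a deletion of several of its exons and DBA/2J mice do not. B6D2F1/J mice descend from both strains, and the Nnt allele of each mouse was not read here.

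The core of the antioxidant response element, through which NRF2 drives many of these genes, was searched for in the RefSeq promoters. These promoters (GRCm38.p6) ran from 250 bases before to 50 bases after the start site. The letters searched were TGACNNNGC on both strands. The promoter table held 7 of the 10 genes (Nqo1, Gclm, Sod1, Sod2, Gpx1, Prdx1 and Txnrd1), and 4 of the 7 contained the core. Of all 27025 genes in the table, 3781 contained it in at least 1 promoter, and of 80 other antioxidant genes 16 (20%) did. The matches are printed on the plus strand with the motif, read here as GCNNNGTCA, in capitals.
Gclm, chr3:122245413-122245441: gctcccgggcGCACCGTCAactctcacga
Prdx1, chr4:116685456-116685484: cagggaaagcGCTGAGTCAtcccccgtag
Txnrd1, chr10:82859104-82859132: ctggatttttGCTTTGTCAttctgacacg
Sod1, chr16:90220696-90220724: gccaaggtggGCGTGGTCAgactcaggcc
The motif began 134 bases before the start site in Gclm, 133 in Prdx1, 92 in Txnrd1 and 56 in Sod1. For Txnrd1 the start site used is an internal one, since the match lies within the gene body (chr10:82833951-82897712, plus strand). As the values below show, Gclm, Prdx1 and Txnrd1 passed the test of genotype at neither age, and Sod1 was lower in transgenic mice at 7 months. A match of letters is a description of the promoter and was not tested as a binding site.

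Between 33404096 and 77806399 reads per mouse were counted on genes. The transgenic label could be checked on Thy1, whose mouse sequence is part of the construct. Thy1 lay between 392.5 and 1741 normalized counts in all 11 transgenic mice and between 9.41 and 47.6 in all 9 wild-type mice. The summed level of 7 microglia markers (Cx3cr1, P2ry12, Tmem119, Csf1r, Aif1, Itgam and Sall1) was at least 1049805 in every mouse. Of the full list of 8 microglia markers, 0 were called at 7 months. At 10 months 3 of the 8 were called higher in transgenic mice and 0 lower, beside 3.88% of all genes called higher (median log2 difference of the list 0.15). Their part in the higher values of Nnt and Gclc was not tested. Hemoglobin genes were listed at 0 in every mouse.

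Nnt was higher in microglia of transgenic mice than in those of wild-type mice at both ages. On mm10 the gene lies on the minus strand at chr13:119335448-119408997, in transcripts of up to 17 exons, and another annotated record of the same span overlaps it. How reads were divided between these records is not given in the sources used here. At 7 months the 6 transgenic mice had 5126, 5361, 5696, 5726, 5738 and 6014 normalized counts, and the 4 wild-type mice 3413, 3814, 4264 and 3822. Every transgenic mouse lay above every wild-type mouse, as in 3.55% of the 13887 genes tested at this age. The means were 5610 ± 315 (SD, n = 6) and 3828 ± 348 (SD, n = 4), and the log2 difference was 0.55 with a standard error of 0.075.

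At 10 months the gap in Nnt was wider. The transgenic mice had 5613, 5466, 5048, 5077 and 5158 normalized counts, and the wild-type mice 1646, 3307, 3232, 2078 and 1834. Again the groups did not overlap, as in 3.78% of the 13627 genes tested at this age. Among the wild-type mice replicates 2 and 3 had at least 3232 normalized counts and the other 3 at most 2078. The means were 5272 ± 253 (SD, n = 5) and 2419 ± 792 (SD, n = 5), and the log2 difference was 1.18 with a standard error of 0.19. Wild-type mice thus had 68.2% of the transgenic mean at 7 months and 45.9% at 10 months. The log2 difference between genotypes was 0.63 (standard error 0.20) greater at 10 months.

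The order of the mean levels of Nnt was transgenic at 7 months, transgenic at 10 months, wild-type at 7 months and wild-type at 10 months. The transgenic groups of the 2 ages overlapped, with ranges of 5126 to 6014 and 5048 to 5613. The wild-type groups did not, since the lowest mouse at 7 months had 3413 normalized counts and the highest at 10 months 3307, on values normalized separately for each age. Spread within the group also differed. Among wild-type mice at 10 months the SD of log2 Nnt was 0.47, which was larger than that of 98.1% of 6382 genes with a mean of at least 1000 in that group (median 0.13). In transgenic mice the SD was 0.08 at 7 months and 0.07 at 10 months, larger than that of 14.9% and 14.5% of genes.

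**Figure D1:**
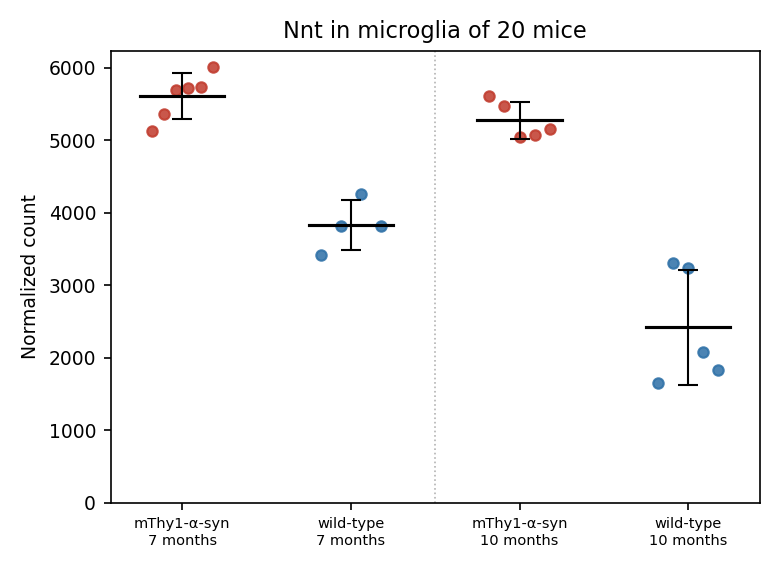
Normalized counts of Nnt (y axis, from 0) in each mouse of the 4 groups (x axis). Points are mice, horizontal lines group means and bars ± 1 SD. All transgenic mice lie at or above 5048, wild-type mice lie between 3413 and 4264 at 7 months and between 1646 and 3307 at 10 months.

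Since Nnt is a strain-dependent gene, the genes that lie beside it were described with it. Of 21 genes in the table within 2 Mb of Nnt, 9 could be tested at 7 months and 1 was called (adjusted p under 0.05 over all genes), beside 4.93% of the 13887 genes tested at that age. At 10 months 8 could be tested and 0 were called by limma, edgeR or DESeq2, beside 7.67% of 13627 genes with limma. By each of these tools 1 of the 8 had an unadjusted p under 0.05, and without transgenic replicate 3 this gene, Gm7120, was called lower (adjusted p = 0.0288). The called gene was 4833420G17Rik, whose body lies 53.8 kb from that of Nnt. It had 940 ± 159 normalized counts in transgenic mice (SD, n = 6) and 1677 ± 316 in wild-type mice (SD, n = 4) at 7 months (log2 difference -0.84, standard error 0.15, adjusted p = 0.00475), so it was lower where Nnt was higher. At 10 months its means were 1426 ± 343 and 1460 ± 272. Paip1, which encodes a partner of the poly(A)-binding protein and is the nearest tested neighbour at 19.6 kb, had log2 differences of -0.18 (adjusted p = 0.166) and -0.16 (adjusted p = 0.348). Widening the window to 5 Mb gave 2 of 16 genes at 7 months, with Parp8 higher (0.33, adjusted p = 0.0378, and up to 0.131 with a mouse left out, without wild-type replicate 1), and 1 of 15 at 10 months, with Emb lower (-1.42, adjusted p = 0.00660). In the window of 2 Mb no other tested gene was higher in transgenic mice past the threshold at either age. The part of the genotype at the locus in the difference in Nnt was not tested.

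**Figure D2:**
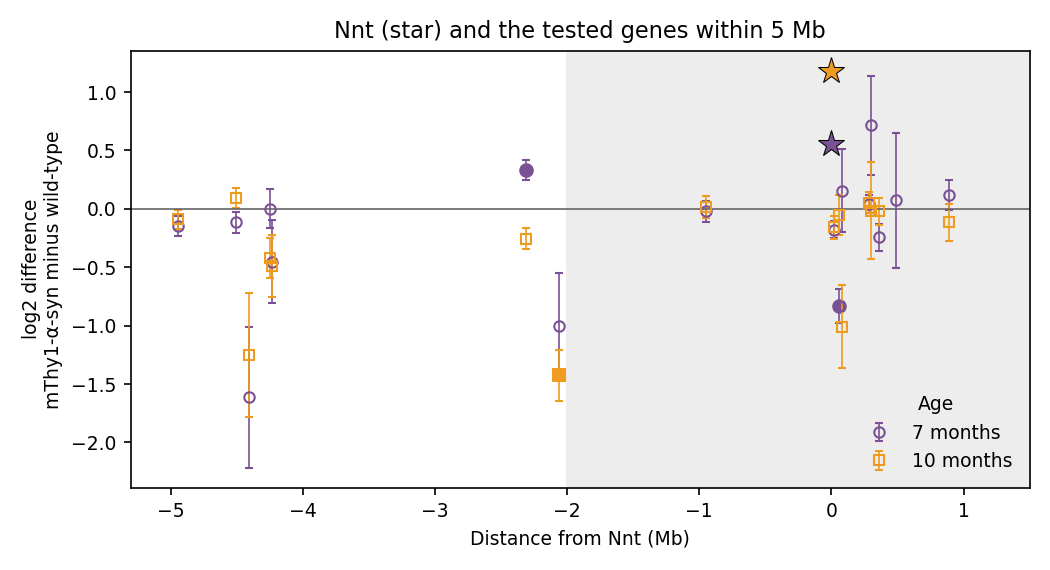
Genotype difference on the log2 scale (y axis, bars ± 1 standard error) of the tested genes within 5 Mb of Nnt against their distance from it in Mb (x axis). Stars mark Nnt, filled symbols genes past the threshold, circles 7 months, squares 10 months and grey the window of 2 Mb. Inside it, 1 gene at 7 months is past the threshold, below 0.

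The genes whose levels followed Nnt most closely over the 20 mice were ranked by Pearson's r of log2 values, each centred on the mean of its age, over 14457 genes. The highest were Thy1 (r = 0.88), Il1rl2 (0.86), Lamb2 (0.86), Rbfox1 (0.85) and Sall2 (0.85). The lowest were Skint3 (-0.86), Cd209a (-0.86), Eif1ad (-0.83), 3110001I22Rik (-0.82) and Gnb4 (-0.82). None of these 10 lies on chromosome 13. Thy1 and Lamb2 lie on chromosome 9, and Rbfox1 and 3110001I22Rik on chromosome 16. Because this centring keeps the genotype difference, any gene that differs between the genotypes takes part in it, and Thy1 is part of the transgene. Among the antioxidant genes Gclc stood at rank 43 (r = 0.78), and the other 8 had r between -0.50 (Sod1) and -0.0033 (Nqo1).

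When values were instead centred on each of the 4 groups, which leaves the spread within groups, the highest were Coro7 (r = 0.86), Mcm7 (0.82), Foxq1 (0.79), Mical1 (0.78) and Ptger1 (0.77). The lowest were Erlin1 (-0.80), Psmd6 (-0.80), Ryk (-0.79), Sar1b (-0.77) and Thyn1 (-0.77). Of the genes in this ranking Foxq1 alone lies on chromosome 13 (chr13:31556134-31560976), and Coro7 lies on chromosome 16. Coro7, which encodes a coronin of the Golgi, had 1435, 1990, 1897, 1410 and 1493 normalized counts in the 10-month wild-type mice, with the highest values in the same pair of mice as Nnt. Gclc had r = -0.28 within groups, Gpx1 0.39 and Txnrd1 -0.46. These are descriptions over 20 mice that share their library processing within each age.

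Of the 9 antioxidant genes other than Nnt, 1 was called at each age, and each gene was a different one. Sod1 was lower in transgenic mice at 7 months and Gclc was higher at 10 months. The share called among all genes was 4.93% at 7 months and 7.67% at 10 months. Over the 9 genes the median log2 difference was -0.16 at 7 months, with 3 above 0 and 6 below, and 0.02 at 10 months, with 5 above and 4 below. The medians over all tested genes were 0.0009 and -0.0026. The difference between the ages was called for 2 of the 9, Hmox1 and Gclc, where 6.36% of 14457 genes were called.

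**Figure D3:**
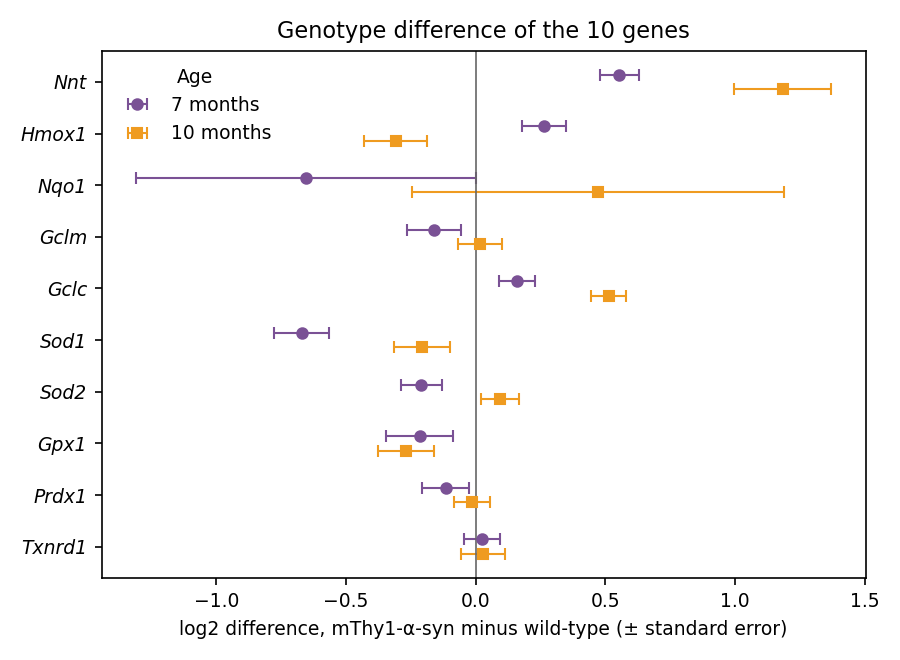
Log2 difference between transgenic and wild-type mice (x axis, bars ± 1 standard error) of Nnt and the 9 antioxidant genes (rows) at 7 months (circles) and 10 months (squares). Nnt lies farthest above 0 at both ages, Sod1 lies at -0.67 at 7 months and Gclc at 0.51 at 10 months.

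Superoxide dismutases came first among the enzymes. Sod1, the copper and zinc enzyme of the cytosol (chr16:90220754-90226329), had 3453, 4430, 4105, 4394, 5032 and 3612 normalized counts in transgenic mice at 7 months and 5552, 6742, 7190 and 6996 in wild-type mice. No transgenic mouse reached the lowest wild-type mouse. The means of 4171 ± 582 (SD, n = 6) and 6620 ± 735 (SD, n = 4) differed by -0.67 on the log2 scale (standard error 0.11, limma adjusted p = 0.00258). At 10 months Sod1 had 4435, 5077, 4275, 6676 and 5090 normalized counts in transgenic mice and 5688, 5479, 5866, 5419 and 6800 in wild-type mice. The groups overlapped through transgenic replicate 4 alone (log2 difference -0.21, standard error 0.11, adjusted p = 0.264). Without that mouse the difference was -0.31 and passed the threshold (adjusted p = 0.0361). The difference between the ages in Sod1 was 0.46 (standard error 0.16, adjusted p = 0.0854), and 0.52 without 7-month transgenic replicate 5 (adjusted p = 0.0483).

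Markers of neurons, oligodendrocytes and endothelial cells moved with Sod1 at 7 months, and those of astrocytes did not. The summed level of 7 neuron markers lay between 173 and 358 in transgenic mice and between 461 and 1099 in wild-type mice, and 4 of the 7 were called lower. For 6 oligodendrocyte markers the ranges were 7845 to 10167 and 12702 to 18093 (3 of 6 called lower), and for 6 endothelial markers 2624 to 4542 and 5014 to 5857 (2 of 6 called lower). For 6 astrocyte markers the ranges overlapped, with 9492 to 12253 in transgenic and 8636 to 11043 in wild-type mice (1 called higher and 1 lower). No list had a defining marker at 0 in all mice of a group. At 10 months the ranges of all these lists overlapped between the genotypes. In bulk RNA, fewer cells of a type and less RNA per cell cannot be told apart, and the part of these cells in the Sod1 difference was not tested.

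Sod2, the manganese enzyme of the mitochondrial matrix (chr17:13006846-13040063), did not pass the test at either age. At 7 months its groups nevertheless did not overlap, with 2449, 2486, 2880, 2841, 2904 and 2785 normalized counts in transgenic mice and 3492, 2916, 3179 and 3010 in wild-type mice. The log2 difference was -0.21 (standard error 0.079, adjusted p = 0.141), and the gap between the highest transgenic and the lowest wild-type mouse was smaller than the SD of either group. Sod1 and Sod2 were the 2 of 9 genes whose groups were separated at 7 months, in the lower direction, as in 3.97% of all tested genes. At 10 months Sod2 had means of 2910 ± 157 and 2729 ± 217 (SD, n = 5 and 5, log2 difference 0.09, adjusted p = 0.462). The difference between the ages was 0.30 (standard error 0.10, adjusted p = 0.0799). Within 2 Mb of Sod2, 4 of 17 tested genes were called at 7 months (23.5%, beside 4.93% of all genes). At 10 months 1 of 19 was called (5.26%, beside 7.67%). Among the windows of the 9 antioxidant genes, those of Sod2 and Gclc had the highest shares at 7 months. The others had 11.1% (Gclm), 10% (Gpx1), 6.67% (Txnrd1), 3.57% (Sod1), 2.13% (Nqo1), 1.79% (Prdx1) and 0% (Hmox1). At 10 months the shares of these others ran from 0% (Hmox1 and Gclm) to 11.5% (Sod1).

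The subunits of glutamate-cysteine ligase, which makes the first step of glutathione synthesis, were read together. Gclc, the catalytic subunit (chr9:77754535-77794485), had 4029, 3884, 4319, 4449 and 4098 normalized counts in transgenic mice at 10 months and 3110, 2723, 2871, 3144 and 2728 in wild-type mice. All transgenic mice lay above all wild-type mice, a separation in this direction seen in 3.78% of all tested genes. The means of 4156 ± 227 and 2915 ± 203 (SD, n = 5 and 5) differed by 0.51 on the log2 scale (standard error 0.068, limma adjusted p = 0.000943). At 7 months the transgenic mice had 4132, 5001, 4524, 4468, 4707 and 4697 normalized counts and the wild-type mice 3968, 4368, 3976 and 4114, which overlapped (log2 difference 0.16, standard error 0.069, adjusted p = 0.202).

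The Gclc difference was 0.35 greater at 10 than at 7 months (standard error 0.092, adjusted p = 0.0221, and 0.0509 without 7-month wild-type replicate 2). Gclm, the modifier subunit (chr3:122245557-122270732), lay between 873 and 1312 normalized counts in all 20 mice. Its log2 differences were -0.16 (standard error 0.11, adjusted p = 0.400) at 7 months and 0.02 (standard error 0.083, adjusted p = 0.927) at 10 months. Only Gclc of the pair was called, and the difference between the subunits was not tested. Within 2 Mb of Gclc, 3 of 14 tested genes were called at 7 months (21.4%, beside 4.93% of all genes). At 10 months 1 of 13 was called (7.69%, beside 7.67%). The count at 7 months fell to 1 with the replicate block and without some mice.

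Hmox1, which encodes heme oxygenase 1 (chr8:75093621-75100589), was called at neither age alone. At 7 months it had 2082, 2355, 2560, 2306, 2642 and 2517 normalized counts in transgenic mice and 1850, 1922, 2012 and 2236 in wild-type mice. Of the 6 transgenic mice, 5 lay above all wild-type mice (log2 difference 0.26, standard error 0.084, adjusted p = 0.0833). Without transgenic replicate 1, the lowest of the group, the difference was 0.31 with an adjusted p of 0.0472.

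At 10 months the Hmox1 means stood in the opposite order. The transgenic mice had 1885, 1945, 2069, 2596 and 2068 normalized counts and the wild-type mice 3527, 2665, 2230, 2288 and 2474 (log2 difference -0.31, standard error 0.12, adjusted p = 0.139). The groups overlapped through transgenic replicate 4. The difference between the ages was -0.57 (standard error 0.15, adjusted p = 0.0249), and the adjusted p was 0.0594 without 7-month wild-type replicate 1. At 10 months, markers of border macrophages, monocytes and neutrophils all moved with Hmox1 (median log2 differences -0.49, -1.08 and -1.28). The summed level of border macrophage markers lay between 18217 and 23557 in transgenic mice and between 24773 and 35050 in wild-type mice. Of these 6 markers 4 were called lower. The part of these cells in the Hmox1 values was not tested.

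**Figure D4:**
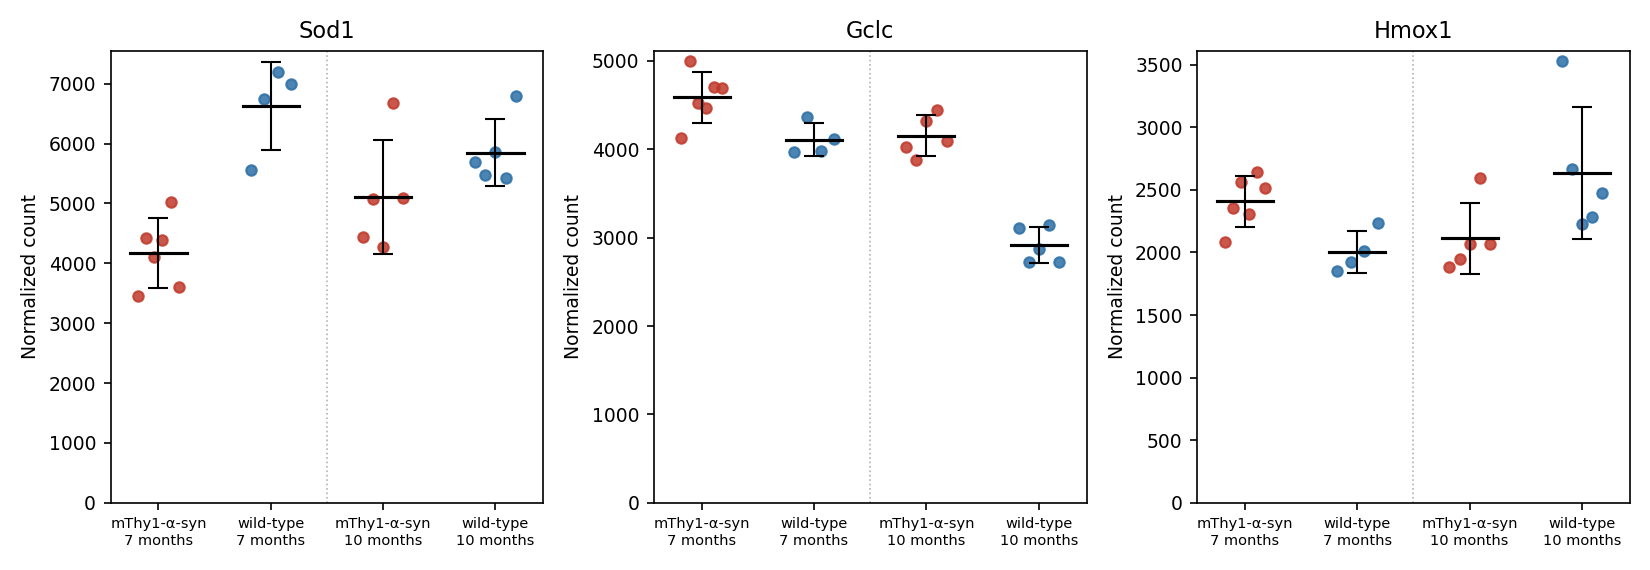
Normalized counts (y axes, each from 0) of Sod1, Gclc and Hmox1 in each mouse of the 4 groups (x axes). Points are mice, horizontal lines group means and bars ± 1 SD. Sod1 is separated by genotype at 7 months and Gclc at 10 months, and the Hmox1 means change order between the ages.

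The peroxide-removing enzymes were the most abundant of the 10 genes per length of annotated exon. This length joins the exons of all annotated transcripts (1441 bases for Gpx1 and 7037 for Nnt), so the scale also depends on the annotation. In transgenic mice at 7 months Gpx1, a glutathione peroxidase (chr9:108338903-108340343), had 7403 normalized counts per kb of exon and Prdx1, a peroxiredoxin (chr4:116685544-116700822), 3757. Nnt had 797 and Hmox1 1377 on the same scale. Gpx1 had means of 10668 ± 2093 and 12238 ± 1222 normalized counts at 7 months (SD, n = 6 and 4), and of 10155 ± 927 and 12337 ± 2106 at 10 months (SD, n = 5 and 5), in transgenic and wild-type mice. The log2 differences were -0.22 (adjusted p = 0.367) and -0.27 (adjusted p = 0.145). Prdx1 lay between 10350 and 13739 normalized counts in all 20 mice, with log2 differences of -0.12 (adjusted p = 0.496) and -0.01 (adjusted p = 0.929).

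Txnrd1 encodes the cytosolic thioredoxin reductase (chr10:82833951-82897712), which uses NADPH to recycle thioredoxin. Its log2 differences were 0.02 (standard error 0.071, adjusted p = 0.879) at 7 months and 0.03 (standard error 0.085, adjusted p = 0.883) at 10 months. In the 10-month wild-type group replicate 1 had 3469 normalized counts, while the other 4 mice had between 2550 and 2640. The same mouse had the highest Hmox1 (3527) and the lowest Nnt (1646) of its group. Nqo1, a quinone reductase that uses NADPH or NADH (chr8:107388225-107403206), was close to the limit of detection, with 3 to 61 reads per mouse. Its log2 differences of -0.65 (standard error 0.65, adjusted p = 0.601) and 0.47 (standard error 0.72, adjusted p = 0.742) lie within about 1 standard error of 0, so a difference was not detectable at this level.

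The wider pathway was read from a list of 96 further genes of NADPH supply, glutathione, thioredoxin, superoxide, heme, NRF2 regulation, detoxification and the NADPH oxidase. At 7 months 95 were tested and 5 called (5.26%, beside 4.93% of all genes). Of these 3 were higher and 2 lower, where 2.23% of all genes were called higher and 2.7% lower. At 10 months 94 were tested and 11 called (11.7%, beside 7.67% of all genes). Of these 3 were higher and 8 lower, where 3.88% of all genes were called higher and 3.79% lower. Values below 0 were more frequent at both ages, in 63 of 95 and 61 of 94 genes, with median log2 differences of -0.13 and -0.07 beside 0.0009 and -0.0026 for all genes. For the difference between the ages 0 of 96 genes were called by limma, where 24 had an unadjusted p under 0.05. edgeR called 1, Nfe2l2, which encodes NRF2 itself and is named after its values were seen, and DESeq2 called 7.

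Among the regulators at 7 months, the repressors Bach1 and Bach2, which occupy antioxidant response elements, were higher. Bach1 had 15275, 13612, 15618, 11769, 12389 and 12900 normalized counts in transgenic mice and 10884, 9885, 9333 and 9799 in wild-type mice, without overlap (log2 difference 0.44, adjusted p = 0.00797). At 10 months its means were 10084 ± 1325 and 9651 ± 1206 (SD, n = 5 and 5). Bach2 was higher at 7 months by 0.40 (adjusted p = 0.0262). Park7, which encodes the redox-sensitive protein DJ-1, was lower by -0.30 (adjusted p = 0.0326), and Blvrb, a biliverdin and flavin reductase that uses NADPH, by -0.41 (adjusted p = 0.0343). The calls of Bach2, Park7 and Blvrb were lost without wild-type replicate 2 (adjusted p = 0.0788, 0.0874 and 0.0854) and without wild-type replicate 3 (0.0881, 0.108 and 0.102), and each also without some other mice. The call of Bach1 held with each mouse left out in turn.

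Abcc1, a transporter that exports glutathione conjugates, was called at both ages. At 7 months it had 2727, 2681, 2696, 2502, 1986 and 1706 normalized counts in transgenic mice and 511, 543, 482 and 1496 in wild-type mice (log2 difference 1.81, adjusted p = 0.0158). At 10 months it had 2460, 2458, 2656, 2394 and 2658 against 398, 1244, 514, 1005 and 435 (log2 difference 1.97, adjusted p = 0.00862). The genotypes did not overlap at either age, and within the wild-type groups replicate 4 at 7 months and replicates 2 and 4 at 10 months lay well above the rest. The call at 7 months was lost without wild-type replicate 1, 2 or 3, with adjusted p of 0.0596, 0.0526 and 0.0526.

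At 10 months Gsr, the reductase that recycles glutathione with NADPH, had 2672, 1921, 2995, 1710 and 3446 normalized counts in transgenic mice and 7739, 7573, 7929, 4184 and 5762 in wild-type mice, without overlap, as in 3.49% of all genes in this direction (log2 difference -1.39, adjusted p = 0.0110). Txn1, cytosolic thioredoxin, had 2340, 2188, 2136, 2436 and 2412 against 3169, 3940, 3815, 2434 and 3336, which overlapped by 1 mouse (log2 difference -0.52, adjusted p = 0.0135). Nadk, the kinase that makes NADP+ from NAD+, was lower by -0.33 (adjusted p = 0.0224). Also lower were Ugdh, which makes UDP-glucuronate (-0.36, adjusted p = 0.00561), Gpx3, the secreted glutathione peroxidase (-0.82, adjusted p = 0.0263), Osgin1, an NRF2 target (-0.93, adjusted p = 0.0298), and Msrb1, a methionine sulfoxide reductase (-0.96, adjusted p = 0.0344). The 11th called gene was Pgd of the pentose phosphate pathway (-0.28, adjusted p = 0.0468), named although it falls outside the rule. Higher were Sesn1, a sestrin (0.33, adjusted p = 0.00897), and Ephx1, microsomal epoxide hydrolase (0.43, adjusted p = 0.0242).

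The calls of Gsr, Txn1, Ugdh, Sesn1 and Abcc1 at 10 months held with each mouse left out in turn. That of Pgd was lost in 9 of 10 such fits, with an adjusted p of up to 0.114 (without wild-type replicate 2), and held without wild-type replicate 4 (0.00767). Those of Nadk, Gpx3, Osgin1, Msrb1 and Ephx1 were each lost without wild-type replicate 2 (adjusted p between 0.0624 for Nadk and 0.0768 for Osgin1) and without other mice. Of the 10 fits that leave out a mouse, the call was lost in 9 for Msrb1, 6 for Gpx3, 5 for Osgin1 and 3 each for Nadk and Ephx1. Markers of neutrophils and monocytes, which CD11b also marks, moved with these genes. The summed level of 5 neutrophil markers lay between 44665 and 120586 in transgenic and between 100981 and 250783 in wild-type mice, with 1 of 5 called lower and Ly6g not in the table. For 4 monocyte markers the ranges were 9307 to 19003 and 18510 to 39864, with 2 of 4 called lower. Their part in the lower values was not tested.

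The NADPH oxidase, which spends NADPH to make superoxide, was represented by Cybb, Cyba, Ncf1, Ncf4 and Rac2. By limma and edgeR 0 of the 5 genes were called at either age, with 1 at 7 months and 3 at 10 months at an unadjusted p under 0.05. DESeq2 called 0 at 7 months and 1 at 10 months, Cybb. At 10 months all 5 were below 0, from -0.0092 for Ncf1 (adjusted p = 0.945) to -0.50 for Cybb, the catalytic subunit (adjusted p = 0.103), with a median of -0.24. At 7 months 3 were above and 2 below 0, with a median of 0.0064 (2 above and 3 below, median -0.0029, with DESeq2). At 10 months the other 3 had log2 differences of -0.25 (Ncf4, adjusted p = 0.106), -0.24 (Rac2, adjusted p = 0.157) and -0.21 (Cyba, adjusted p = 0.227).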

How the data were processed

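RNA-seq of microglia from 20 mice was analysed. The authors trimmed reads with Trim Galore 0.6.7, mapped them to mm10 with HISAT2 2.2.1, counted them per gene with featureCounts (Rsubread 2.18.0) and used DESeq2 1.44.0. Annotation and strand settings are not given in the sources used here. The deposited signal values are the gene counts after division by a size factor per mouse, which was set separately for each age. Whole reads were recovered (100% of values within a tolerance of 0.01).

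Values were compared with limma's moderated test (trend, robust) on log2(value + 1) for genes that reached a value of 10 in at least 4 mice at 7 months, 5 at 10 months and 4 of 20 for the difference between the ages, with Benjamini-Hochberg adjustment over all tested genes and a threshold of 0.05. Fold changes of low genes are understated on this scale. Alternatives were edgeR and DESeq2 on recovered reads, TMM log2 CPM, pseudocounts of 0.5 and 5, no filter, a replicate block, each mouse left out, and windows of 1 and 5 Mb. The limma test was checked on simulated counts in which genes varied independently, so changes shared by many genes were not covered.

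The genes and lists were chosen with earlier results of these data known. Named were the 10 genes, called pathway genes (up to 10 per age), NADPH oxidase genes, called genes within 2 Mb of Nnt, the 5 genes most and the 5 least like Nnt, Thy1 and markers. Results for some genes named by this rule are left out. The spread of Nnt, the motif search, the windows around other genes and Coro7's values were added after the data were seen. Positions are from GENCODE vM21 (mm10), promoters from RefSeq. All 20 single-mouse files held the table's values. No pair of mice in a group agreed within counting noise. p-values weigh the difference between groups against the spread between mice. Python 3.11.15 (pandas 2.3.3, numpy 2.4.6, matplotlib 3.10.9) and R 4.3.3 were used, with DESeq2 1.42.0, edgeR 4.0.16 and limma 3.58.1. DNA methylation was not analysed here.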

Additional observations from a re-analysis of the deposited data

Results flagged for a closer look

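The genotype effect differed between the ages for Hmox1, by -0.573 on the log2 scale (adjusted p = 0.0249), and for Gclc, by 0.354 (adjusted p = 0.0221), in a test of the difference itself over all 20 mice. In Hmox1 the effect was above 0 at 7 months and below 0 at 10 months, and in Gclc it was above 0 at both ages. Single mice stood apart from their group in 3 of the 40 groups examined (10 genes in 4 groups), where chance gives about 1 in 20. At 10 months transgenic replicate 4 had the highest Hmox1 of its group, with 2596 normalized counts. The same mouse had the lowest Gclm, with 1043, in a group whose other mice lay between 1068 and 1071, so the distance was small in absolute terms. Wild-type replicate 1 at 10 months had the highest Txnrd1, with 3469.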

How the results depend on the processing

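The level difference of Nnt kept its direction under every alternative, between 0.50 and 0.61 at 7 months and between 1.06 and 1.31 at 10 months when each mouse was left out. The Sod1 call at 7 months (adjusted p from 6.23e-07 to 0.0129) and the Gclc call at 10 months (1.10e-09 to 0.00494) held in all. With DESeq2 the pathway list had 13 called genes at 7 months and 18 at 10 months in place of 5 and 11, and all genes 1158 and 1694 in place of 684 and 1045. With mice left out in turn, the list count ranged from 1 to 7 (1 without 7-month wild-type replicate 2 or 3, 2 without wild-type replicate 1 or transgenic replicate 2 or 3) and from 5 to 19 (5 without 10-month wild-type replicate 2, 6 without wild-type replicate 1 or transgenic replicate 1, 7 without wild-type replicate 3 or 5, 19 without wild-type replicate 4). All genes ranged from 280 to 860, from 489 to 1232 and, for the difference between the ages, from 618 to 1097. The count among the 9 antioxidant genes ranged from 1 to 2 at each age and from 1 to 3 for the difference. Near Nnt the window of 5 Mb gave 2 genes at 7 months and 1 at 10 months, and leaving out mice at 10 months gave 0 to 1 (1 without transgenic replicate 3). Values near 0 changed sign: the Txnrd1 difference between the ages was -0.00041 with DESeq2 and -0.0033 with edgeR, and with mice left out it ranged from -0.024 to 0.087, Txnrd1 at 7 months from -0.012 to 0.043, Gclm at 10 months from -0.020 to 0.061, Prdx1 at 10 months from -0.049 to 0.021 and the Gpx1 difference between the ages from -0.13 to 0.016. The cause of these shifts was not tested.

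Equal replicate numbers did not mark paired mice (correlations of same-numbered mice between -0.127 and 0.046, and 1 of 9 pairs correlated best with its own number). With the replicate block, 0 of the 9 antioxidant genes kept a called difference between the ages (adjusted p = 0.116 for Hmox1 and 0.0536 for Gclc), and the Gpx1 difference turned to 0.108. All called genes numbered 414 at 7 months, 916 at 10 months and 482 (in place of 920) for the difference. Abcc1 (0.0965), Blvrb (0.0697) and Parp8 (0.0938) at 7 months and Gpx3 (0.0519) and Pgd (0.0607) at 10 months passed the threshold no more. Parp8 (0.0502) and Pgd (0.0612) also lost their calls with no filter on low values.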
